A study of Homo sapiens with 6 samples.

Results

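RASL11A, RASL11B, RASD1, RRAD, GEM, RHOB, RND1 and RND3 encode small GTPases, and they make up 8 of the 18216 genes measured. The first 5 belong to the RAS family and the last 3 are relatives of RHOA. The genes were chosen by symbol with the difference between SNS-032 and DMSO in these libraries already known, and RASL11A had led the increases. Their differences between the groups are therefore given as a description, with no test. RNA from REH cells, an established human B-cell precursor leukemia line, was sequenced after CDK9 inhibition to ask how the drug changes the transcript profile of B-ALL cells. The SNS-032 group consisted of 3 libraries from REH cells kept with 200 nM SNS-032 for 24 h, and the DMSO group of 3 libraries from REH cells kept with the solvent DMSO for 24 h. SNS-032 inhibits CDK9 and other cyclin-dependent kinases, and the treatment field of the sample labels spells it SNA-032. The labels name REH cells, whereas headings printed inside the study's pathway plots name NALM6, another B-cell precursor leukemia line, and the labels were followed. The labels do not say whether the libraries of a group came from separate cultures, so a p-value measures only the spread between these libraries, which may be technical, in a single cell line.

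Small GTPases are molecular switches that are active when bound to GTP and inactive when bound to GDP. Exchange factors load them with GTP, GTPase-activating proteins switch them off, and for most of them a lipid tail holds the protein at a membrane. Several of the 8 depart from this cycle, or are controlled at least in part through how much of the protein is made. RND1 and RND3 stay bound to GTP, and RRAD and GEM restrain voltage-gated calcium channels. RASD1 was found as a dexamethasone-inducible gene, and RHOB is a short-lived protein whose gene responds to growth factors and DNA damage. RASL11A, which lacks the lipid tail, sits in the nucleolus and promotes transcription of ribosomal RNA.

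Expression was measured as FPKM, a fragment count scaled by transcript length and by the mapped fragments of the library. The values in a library sum to between 470090 and 491890 with SNS-032, and between 457830 and 464310 with DMSO. FPKM is a share of a library, so fewer cells of a type, less RNA per cell and a change in total RNA cannot be told apart, and the depth of the libraries is unknown. Fold changes are differences of mean log2(FPKM + 1), which understate the change of genes near 0. A gene was tested when its mean reached 1 FPKM in at least 1 group, which left 12239 genes. At an adjusted p under 0.05 by limma, 39.9% of them were higher and 49.3% lower with SNS-032. The median log2 fold change of these genes was −0.14. With each library scaled linearly by its median ratio, which was added as an alternative after seeing the data, the median was 0.16 and the split became 49.8% higher and 38.7% lower. With each library centred on its median of log2 values, the median was 0.20 and the split 51.2% higher and 37.2% lower. The cells carried 11 of 12 markers of B-cell precursors at 1 FPKM or more in both groups, MME being the exception at 0.0833 FPKM with SNS-032 and 0.0733 FPKM with DMSO. Their summed level was lower with SNS-032, at 1147 to 1279 FPKM, against 1827 to 1974 FPKM with DMSO, and of the 11 tested, 3 rose and 7 fell, among them the surrogate light chain genes VPREB1 (−2.07) and IGLL1 (−1.68). Markers of other cell types moved as well. The summed level of 9 myeloid markers was between 19.8 and 22.6 FPKM with SNS-032 and between 9.09 and 9.44 FPKM with DMSO, with 3 markers at 1 FPKM or more with SNS-032 and 2 with DMSO. The higher sum came mostly from LYZ, at 16.7 FPKM with SNS-032 and 3.15 FPKM with DMSO. CD14 was also higher (2.32 FPKM with SNS-032 and 0.0667 FPKM with DMSO), CSF1R was lower (1.05 and 4.89 FPKM), and the other 6 were under 1 FPKM in both groups. For 6 epithelial markers the sums were between 5.87 and 6.17 FPKM with SNS-032 and between 2.39 and 2.72 FPKM with DMSO, with 2 and 1 at 1 FPKM or more. For 9 T and NK cell markers the sums were between 38.0 and 46.4 FPKM with SNS-032 and between 54.6 and 57.1 FPKM with DMSO, with 4 and 2 at that level. Their lower sum came from NKG7, at 21.7 FPKM with SNS-032 and 53.5 FPKM with DMSO, whereas the other 3 tested were higher: KLRD1 averaged 15.2 FPKM with SNS-032 and 2.23 FPKM with DMSO, CD3G averaged 2.94 FPKM with SNS-032 and 0.257 FPKM with DMSO, and GNLY averaged 2.06 FPKM with SNS-032 and was listed at 0 with DMSO. CD3D and CD3E had means at or under 0.03 FPKM in both groups. For 11 endothelial and fibroblast markers the sums were between 5.62 and 6.72 FPKM with SNS-032 and between 7.5 and 8.32 FPKM with DMSO, with 2 and 1 at that level, of which PDGFRB was lower (2.89 FPKM with SNS-032 and 6.43 FPKM with DMSO) and PECAM1 higher (1.77 FPKM with SNS-032 and 0.827 FPKM with DMSO). The part of other cells in the members' values was not tested.

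RASL11A was the most changed of the 8 and had the largest log2 fold change of the 12239 genes tested. It had 343, 304 and 306 FPKM in the 3 SNS-032 libraries, against 0.27, 0.2 and 0.36 FPKM in the 3 DMSO libraries. The groups lie far apart, and the SNS-032 libraries differ from each other by far less than from any DMSO library. The mean was 317 ± 22.1 FPKM with SNS-032 and 0.277 ± 0.0802 FPKM with DMSO (SD, n = 3 libraries each). The ratio of the means was 1147, and the ratios between single libraries ranged from 844 to 1714, a width that comes mostly from the DMSO values, which lie near the bottom of the scale. On the log2(FPKM + 1) scale the difference was 7.96 (SE 0.07).

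Ranked by level among all 18216 genes, RASL11A stood at position 172, 183 and 180 in the SNS-032 libraries, against 12476, 12928 and 12094 in the DMSO libraries. A gene with no more than trace signal under DMSO thus took a place among the most abundant transcripts after 24 h of SNS-032, where it held between 0.0646% and 0.0697% of the summed FPKM. Of the 7446 genes with a mean under 1 FPKM with DMSO, 19.7% reached 1 FPKM with SNS-032. RASL11A was the sole gene among them to reach 100 FPKM, a limit set after its values were seen. HIST1H2BG, a histone gene whose reads may be split with near-identical copies, came next at 80.3 FPKM.

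**Figure D1:**
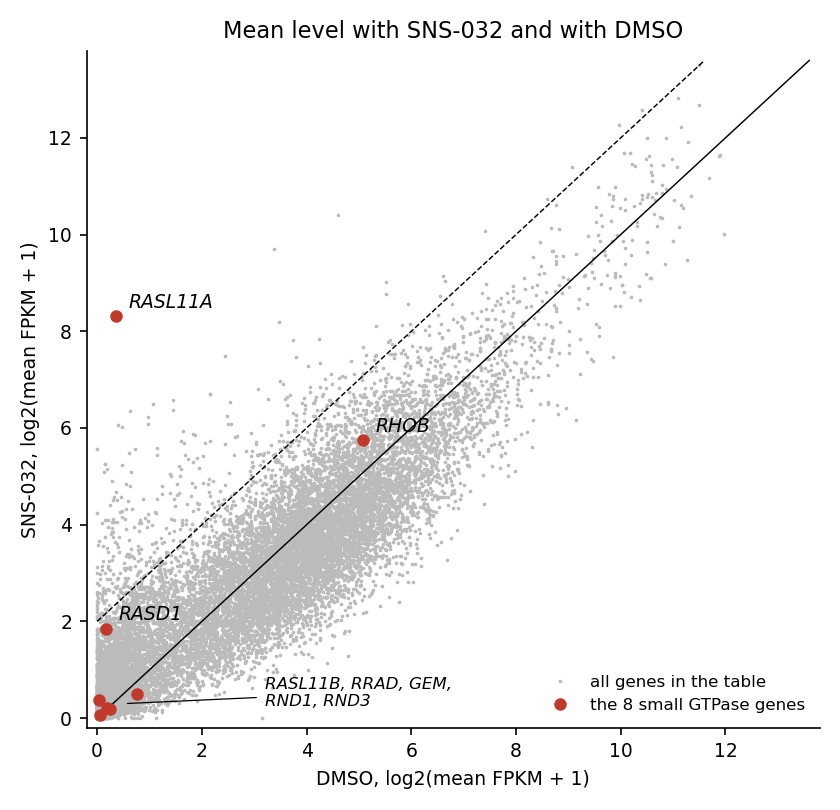
Mean level of every gene with SNS-032 (vertical axis) against DMSO (horizontal axis), both as log2(mean FPKM + 1), with the 8 small GTPases in color. The solid line marks equal levels and the dashed line a log2 difference of 2. RASL11A, at a mean of 317 FPKM with SNS-032 and 0.277 FPKM with DMSO, stands apart at the upper left, while RASD1 and RHOB lie between the lines and the other 5 lie near the origin.

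RASD1, a RAS-family protein that binds G-protein subunits and the adaptor NOS1AP, reached 1 FPKM with SNS-032 only and stayed at a low level there. It had 2.97, 2.54 and 2.32 FPKM in the SNS-032 libraries, against 0.13, 0.03 and 0.21 FPKM in the DMSO libraries. Every SNS-032 library lay above every DMSO library, as it did for 40.2% of the genes tested. The means were 2.61 ± 0.331 FPKM with SNS-032 and 0.123 ± 0.0902 FPKM with DMSO (SD, n = 3 each), a ratio of 21.2, and the ratio between single libraries reached 99.0 against DMSO replicate 2, which lay at 0.03 FPKM. The log2 difference was 1.68 (SE 0.10), and 5.67% of the genes tested had one at least as large.

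RHOB, the endosomal relative of RHOA, was the single member well expressed in both groups. It had 56.9, 52.7 and 48.4 FPKM in the SNS-032 libraries, against 31.8, 34.5 and 31.5 FPKM in the DMSO libraries. The groups did not overlap, and 40.2% of the genes tested were likewise higher in every SNS-032 library. The means were 52.6 ± 4.25 FPKM with SNS-032 and 32.6 ± 1.68 FPKM with DMSO (SD, n = 3 each), a ratio of 1.61 that ranged from 1.40 to 1.81 between single libraries. The log2 difference of 0.67 (SE 0.06) was ordinary for this contrast, since 25.1% of the genes tested had one at least as large.

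Sequences before the annotated start are shown for RHOB, RASD1 and RASL11A because these are the members with expression over 1 FPKM. They are RefSeq sequences on GRCh38.p14, read 5′ to 3′ on the strand of the gene. A RefSeq window was matched for 5 of the 8 members. The motifs searched were the TATA-box core TATAA, its variant TTTAAA, the NF-Y box CCAAT, the GC box GGGCGG, the E-box CACGTG, the cAMP response core TGACG and the AP-1 site TGANTCA, on both strands, and they were chosen after the windows had been seen. For RHOB, at chr2:20446824-20447073 on the forward strand, the capitals mark CCAAT, found on both strands, and TTTAAA.
RHOB: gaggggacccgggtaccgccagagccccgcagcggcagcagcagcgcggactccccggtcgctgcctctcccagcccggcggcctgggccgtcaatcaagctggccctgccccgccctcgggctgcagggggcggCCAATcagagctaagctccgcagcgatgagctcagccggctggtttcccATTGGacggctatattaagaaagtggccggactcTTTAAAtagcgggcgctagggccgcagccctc
For RASD1, at chr17:17496396-17496645 on the reverse strand, the capitals mark TATAA and TGACG.
RASD1: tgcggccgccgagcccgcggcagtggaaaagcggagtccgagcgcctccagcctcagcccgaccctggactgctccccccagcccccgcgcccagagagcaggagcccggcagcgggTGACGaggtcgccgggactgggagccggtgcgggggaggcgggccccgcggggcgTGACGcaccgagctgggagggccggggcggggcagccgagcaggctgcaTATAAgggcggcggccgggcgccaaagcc
For RASL11A, a stretch of 30 bases at chr13:27270788-27270817 on the forward strand is shown, with TTTAAA in capitals. It lies before the RefSeq start but inside the first exon of the GENCODE model, which starts farther upstream.
RASL11A: cgcaccaagcccTTTAAAagccgcgggcct

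All 3 expressed members thus held TATAA or TTTAAA on the gene strand shortly before the RefSeq start. The match lay 30 bases before that start in RASL11A, 29 in RASD1 and 32 in RHOB. Such a match with its first base between 40 and 20 bases before the start was found in 5.4% of the 35116 windows, and in neither RASL11B nor RND3. RND1, RRAD and GEM had no window. Because the motifs were chosen after the windows had been seen, this share is a description and not a test. Anywhere in a window of 300 bases, TATAA occurred in 20.4%, TTTAAA in 12.2%, CCAAT in 34.6%, GGGCGG in 45.0%, CACGTG in 7.26%, TGACG in 24.6% and TGANTCA in 7.71% of all windows. CACGTG and TGANTCA had no match in the windows of the 5 members. A match describes the letters in the window and says nothing of whether a factor binds there.

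A log2 fold change of at least 2 was found for 3.52% of the genes tested and for 1 of the 8 members, RASL11A. That count depends on the setting, since RASD1 had 3.68 with a pseudocount of 0.1, 2.36 rescaled to 1000000 and 2.02 centred. The share of all genes at 2 or more under those settings is not given here. The filter kept 3 members, of which RASL11A and RASD1 passed only through the SNS-032 group, where they are high, so the direction of those 2 was fixed by the filter. Among the 3, SNS-032 replicate 1 was the highest library each time, at 1.13, 1.22 and 1.13 times the mean of SNS-032 replicates 2 and 3 for RASL11A, RASD1 and RHOB. That library was the highest of its group for 34.3% of all genes tested and had the largest sum of FPKM. Without it the log2 fold changes were 7.91 for RASL11A, 1.61 for RASD1 and 0.62 for RHOB. Leaving it out could not reverse the order of the groups, which do not overlap for these 3 genes. Its part in the members' values was not tested further.

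**Figure D2:**
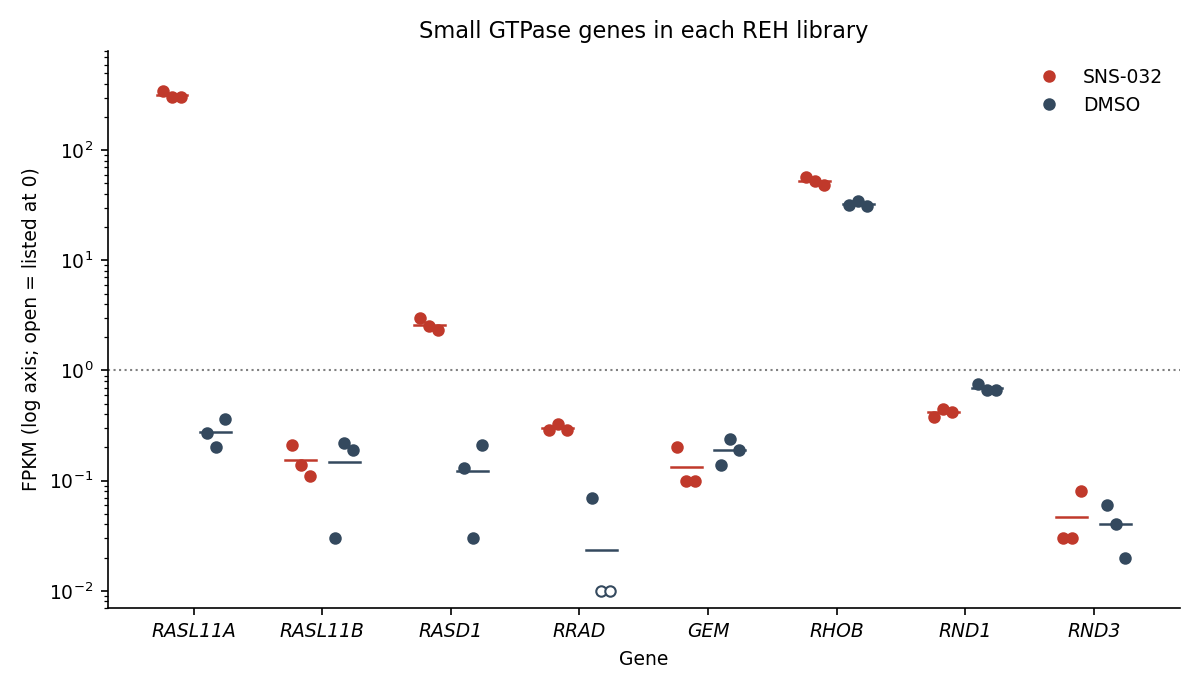
FPKM of the 8 small GTPases in each library, on a log axis, with SNS-032 libraries left of DMSO libraries for each gene, a bar at the group mean and a dotted line at 1 FPKM. Open points mark libraries listed at 0. The groups are apart for RASL11A, RASD1, RHOB, RRAD and RND1, and they overlap for RASL11B, GEM and RND3, which with RRAD and RND1 stay under 1 FPKM throughout.

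The other 5 members stayed under 1 FPKM in every library, which goes against calling the whole set inducible in these cells at 24 h. RRAD, a RAS-related protein of muscle that binds calcium channel beta subunits, had 0.29, 0.33 and 0.29 FPKM in the SNS-032 libraries, against 0.07 FPKM in DMSO replicate 1, and was listed at 0 in DMSO replicates 2 and 3. All its SNS-032 values lay above all its DMSO values, as they did for 35.3% of the 5977 genes under 1 FPKM in both groups. The sum of 6 muscle markers was between 4.86 and 6.42 FPKM with SNS-032 and between 0.32 and 0.39 FPKM with DMSO, and only ACTA1 reached 1 FPKM, at 4.39 FPKM with SNS-032 and 0.0833 FPKM with DMSO. RND1, which disassembles actin filaments through plexins, ran the other way. It had 0.38, 0.45 and 0.42 FPKM in the SNS-032 libraries, against 0.76, 0.67 and 0.67 FPKM in the DMSO libraries, a ratio of means of 0.595. Such a complete downward separation was seen for 6.59% of the genes at this level.

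GEM, the relative of RRAD that also inhibits ROCK1, had 0.2, 0.1 and 0.1 FPKM in the SNS-032 libraries, against 0.14, 0.24 and 0.19 FPKM in the DMSO libraries. RASL11B, the closest relative of RASL11A, had 0.21, 0.14 and 0.11 FPKM in the SNS-032 libraries, against 0.03, 0.22 and 0.19 FPKM in the DMSO libraries. RND3, an inhibitor of ROCK1, had 0.03, 0.03 and 0.08 FPKM in the SNS-032 libraries, against 0.06, 0.04 and 0.02 FPKM in the DMSO libraries. The groups overlapped for all 3, and no difference was detectable at these levels. RASL11A and RASL11B, the 2 genes of the RASL11 pair, thus had very different levels with SNS-032 and similar ones with DMSO.

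Within the RAS family, RASL11A changed the make-up of the whole set of transcripts. It accounted for 42.5%, 39.8% and 39.8% of the summed FPKM of the 32 RAS-family genes in the SNS-032 libraries, where it ranked first, against 0.0584%, 0.0451% and 0.0795% in the DMSO libraries, where it ranked between 21 and 24. The family sum was between 764 and 808 FPKM with SNS-032 and between 444 and 462 FPKM with DMSO. Without RASL11A, it was between 460 and 465 FPKM with SNS-032 and between 444 and 462 FPKM with DMSO. In these unscaled sums the excess thus lay almost wholly in this gene. Linear scaling moved other family genes up with SNS-032, NRAS from 1.14 to 1.45 and RAP2A from −1.65 to −1.38 on the log2 scale. That scaling divides all genes of a library by the same factor, so it also moves the sum without RASL11A up with SNS-032 relative to DMSO. The family sums were not taken under it, and how much of the excess then lies in other family genes was not tested.

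RHOB did not shift within its own group in the same way. RHOA, RHOB and RHOC are near relatives that control actin fibers, and RHOB made up 7.91%, 7.29% and 6.54% of their summed FPKM in the SNS-032 libraries, against 6.82%, 7.33% and 6.72% in the DMSO libraries, which overlap. RHOA, by far the most abundant of them, averaged 671 ± 16.0 FPKM with SNS-032 and 432 ± 1.49 FPKM with DMSO (SD, n = 3 each), a log2 fold change of 0.63 with a limma adjusted p of 9.71e-09. RHOC averaged 3.40 ± 0.722 FPKM with SNS-032 and 3.86 ± 0.556 FPKM with DMSO, a log2 difference of −0.15 that did not pass the test, with an adjusted p of 0.252 by limma, and that was 0.10 under linear scaling and 0.18 under centring. Without SNS-032 replicate 1 it was −0.28, with an adjusted p of 0.033 by limma.

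Of 11 further genes set down as close relatives of the members, 9 were in the table, and REM1 and RERG were not analysed here. REM2, which like RRAD and GEM restrains calcium channels, had 1.45, 1.86 and 1.61 FPKM in the SNS-032 libraries, against 0.06, 0.23 and 0.06 FPKM in the DMSO libraries, a log2 difference of 1.24. RND2, the third RND protein, had 1.73, 1.31 and 1.45 FPKM in the SNS-032 libraries, against 0.13, 0.14 and 0.1 FPKM in the DMSO libraries, a log2 difference of 1.15. RASL10A averaged 1.86 FPKM with SNS-032 and 0.68 FPKM with DMSO, a log2 difference of 0.77. These 3 stayed under 2 FPKM and passed the filter only through the SNS-032 group, so their direction was fixed by the filter too and no test is given. RASD2, RASL10B, RASL12 and RERGL were under 1 FPKM in both groups.

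**Figure D3:**
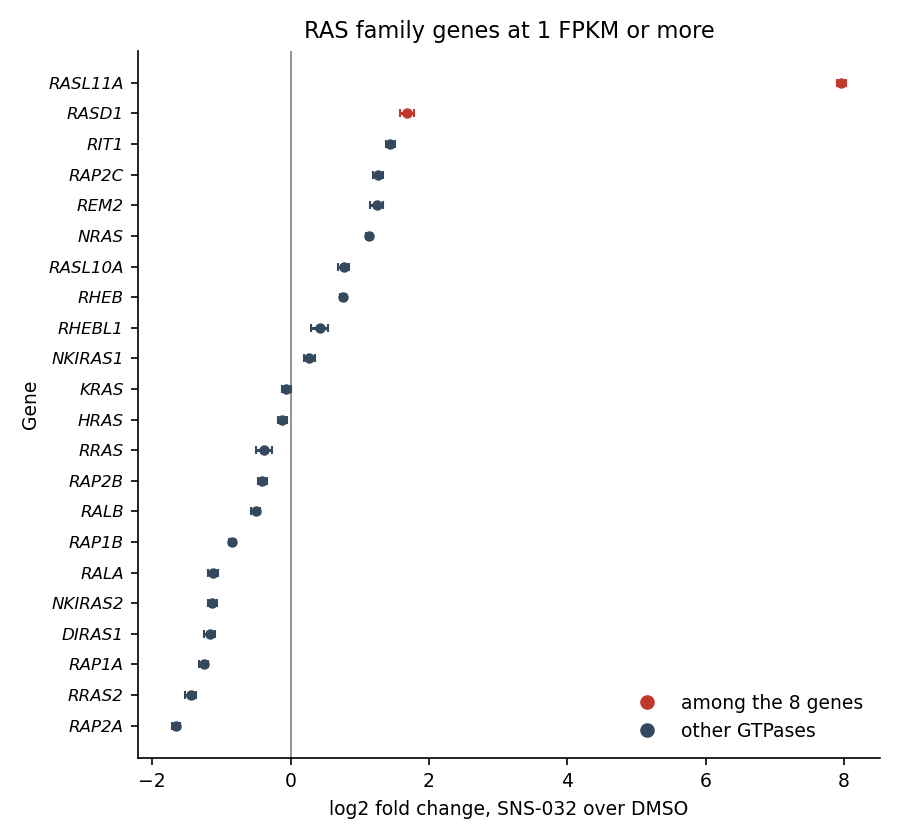
Log2 fold change (SNS-032 minus DMSO, on the log2(FPKM + 1) scale) of RASL11A, RASD1 and the other RAS-family genes tested, with bars for the standard error. RASL11A stands at 7.96, followed by RASD1 at 1.68 and RIT1 at 1.44.

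The other small GTPases moved in both directions, as most of the transcriptome did. Of 20 other RAS-family genes tested, 8 rose and 10 fell (median −0.25), but 10 rose and 8 fell under linear scaling. The 8 include REM2 and RASL10A, whose direction was fixed by the filter. With a filter at 5 FPKM, 4 of 15 rose and 9 fell. NRAS (1.14), RIT1 (1.44) and RAP2C (1.26) rose on the log2 scale, while RAP2A (−1.65), RRAS2 (−1.44) and RAP1A (−1.26) fell. RHOH, a blood-cell GTPase needed for antigen receptor signaling in T cells, had 155, 155 and 154 FPKM in the SNS-032 libraries, against 15.8, 15.0 and 15.2 FPKM in the DMSO libraries, a log2 fold change of 3.25. RAC2 (−0.76) and RHOG (−0.58) fell. RAC3 (0.54) rose but lost the call without DMSO replicate 1 (0.51) or DMSO replicate 3 (0.56), and RHOQ (−0.39) lost it under linear scaling (−0.09) and centring (−0.05).

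RAB proteins, which steer vesicles, and the ARF group were likewise mixed. Of 51 RAB genes tested, 26 rose and 19 fell (median 0.28), with 32 and 15 under linear scaling, beside 39.9% higher and 49.3% lower among all genes tested. Only 43 RAB genes reached 1 FPKM with DMSO, and 48 did with SNS-032. For those that passed through a single group, the direction was fixed by the filter. With a filter at 5 FPKM, 16 of 34 RAB genes rose and 14 fell, beside 3144 and 5165 of all 9163 genes tested. On the log2 scale RAB33B (1.58), RAB12 (1.53) and RAB43 (1.52) were highest and RAB28 (−1.47), RAB5B (−1.41) and RAB34 (−1.24) lowest among those the naming rule took. Of 25 ARF, ARL, SAR1 and RAN genes, 9 rose and 12 fell (median −0.09), which turned to 12 and 9 under linear scaling. ARL10 (1.77) and ARF1 (1.55) rose, and ARL1 (−1.80) and ARL15 (−1.29) fell.

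The proteins that act with the members were examined next. Of 34 regulators and effectors of RHOB and the RND proteins tested, 8 rose and 19 fell (median −0.30), with 14 and 14 under linear scaling and 15 and 13 under centring. KCTD10 (1.88) and KCTD13 (1.81), adaptors of the ubiquitin ligase cullin 3, rose together with RHPN1 (1.47), while the protein kinase ROCK2 (−1.44), ARHGAP5 (−1.30) and the formin DIAPH2 (−1.17) fell. Of 28 exchange factors and GTPase-activating proteins of RAS, RAP and RAL, 8 rose and 17 fell (median −0.47), with 12 and 15 under linear scaling and 11 and 13 under centring. RASGRP3 (1.94), RALGDS (1.35) and RGL2 (0.58) rose, and RAP1GDS1 (−1.72), SIPA1 (−1.22) and SOS2 (−1.22) fell. Of 27 binding partners of RRAD, GEM and RASD1, 11 rose and 13 fell (median −0.11), which turned to 14 and 9 under linear scaling. YWHAE (0.97), CAMK2D (0.95) and SLC11A2 (0.66) rose, while YWHAQ (−1.95) and YWHAB (−1.53) fell.

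RASL11A is known from mouse and human cells as a partner of UBTF, the factor that opens ribosomal RNA genes to RNA polymerase I. UBTF had 20.1, 19.2 and 18.5 FPKM in the SNS-032 libraries, against 75.3, 72.8 and 75.1 FPKM in the DMSO libraries, and fell by 1.90 on the log2 scale with no overlap. Of 21 genes of RNA polymerase I transcription tested, 6 rose and 13 fell (median −0.42), with 9 and 10 under linear scaling. The initiation factor gene RRN3 (1.72) and the polymerase subunit genes TWISTNB (1.44) and POLR1D (1.42) rose, and POLR1E (−2.54), UBTF and TAF1B (−1.32) fell. Ribosomal RNA itself was not measured here. Of 20 genes that make, attach and trim the lipid tail of small GTPases, 4 rose and 13 fell (median −0.50), with 6 and 11 under linear scaling. The sterol-pathway enzyme MVD (1.52), the RAB escort protein CHM (1.08) and the farnesyltransferase subunit FNTB (0.94) rose, and the chaperone PDE6D (−2.37), CHML (−2.01) and PMVK (−1.92) fell.

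The 5 genes whose 6 values of log2(FPKM + 1) lay nearest to those of RASL11A by Euclidean distance were TNFRSF10B, a death receptor for TRAIL (3.38), the histone gene HIST1H2BG (3.48), the arrestin-like gene ARRDC4 (3.57) and the histone genes HIST1H2AE (3.82) and HIST1H2BD (3.88). TNFRSF10B had 91.7, 89.7 and 86.8 FPKM in the SNS-032 libraries, against 1.02, 0.88 and 1.38 FPKM in the DMSO libraries. Each of the 5 stayed under 100 FPKM with SNS-032 and under 2 FPKM with DMSO, so the nearest profiles were still well below that of RASL11A after treatment. Of the 5, 3 remained among the nearest with a pseudocount of 0.1 and 3 without SNS-032 replicate 2. The 3 histone genes are multicopy, and reads may be split between near-identical members.

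On GRCh38, RASL11A lies on chromosome 13 from 27270327 to 27273690 on the forward strand and spans 3364 bp. RASD1 spans 1959 bp on chromosome 17 from 17494437 to 17496395 on the reverse strand, and RHOB 2372 bp on chromosome 2 from 20447074 to 20449445 on the forward strand in 1 exon. All 3 are short genes, under 5 kb, but so are RASL11B (4546 bp) and RRAD (3966 bp), which stayed under 1 FPKM. No other GENCODE gene overlaps any of the 8 members. Among the 1073 tested genes under 5 kb, 44.7% were higher with SNS-032 and 9.88% had a log2 fold change of at least 2. Among tested genes of 100 kb or more, 33.4% were higher and 1.45% had a log2 fold change of at least 2. Whether gene length has a part in the members' values was not tested.

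The nearest genes in the table on either side did not share the size of the change of RASL11A. RPL21, a ribosomal protein gene 13636 bp upstream, averaged 1748 ± 162 FPKM with SNS-032 and 1553 ± 37.5 FPKM with DMSO (SD, n = 3 each), a log2 fold change of 0.17 with an adjusted p of 0.0194 by limma, which was 0.0743 without DMSO replicate 1, where the fold change was 0.15. Under linear scaling the log2 fold change of RPL21 was 0.48, and under centring 0.50. GTF3A, which encodes the factor for 5S ribosomal RNA and lies 150854 bp downstream, averaged 49.4 ± 1.09 FPKM with SNS-032 and 144 ± 3.01 FPKM with DMSO, and fell by 1.52 on the log2 scale. MED9, a Mediator subunit gene that ends 1211 bp from the end of RASD1 on the opposite strand, had 42.7, 44.7 and 45.1 FPKM in the SNS-032 libraries, against 10.9, 11.7 and 12.6 FPKM in the DMSO libraries, and rose by 1.83 on the log2 scale. The sources used here do not give the strandedness of the libraries, and the part of reads from MED9 in the RASD1 values was not tested. PEMT, 9168 bp upstream of RASD1, fell by 1.12 on the log2 scale. Around RHOB, PUM2 (−0.46) and HS1BP3 (−0.39) fell while RHOB was higher, though HS1BP3 lost the call under linear scaling (−0.12) and both lost it under centring (−0.13 for PUM2 and −0.05 for HS1BP3).

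**Figure D4:**
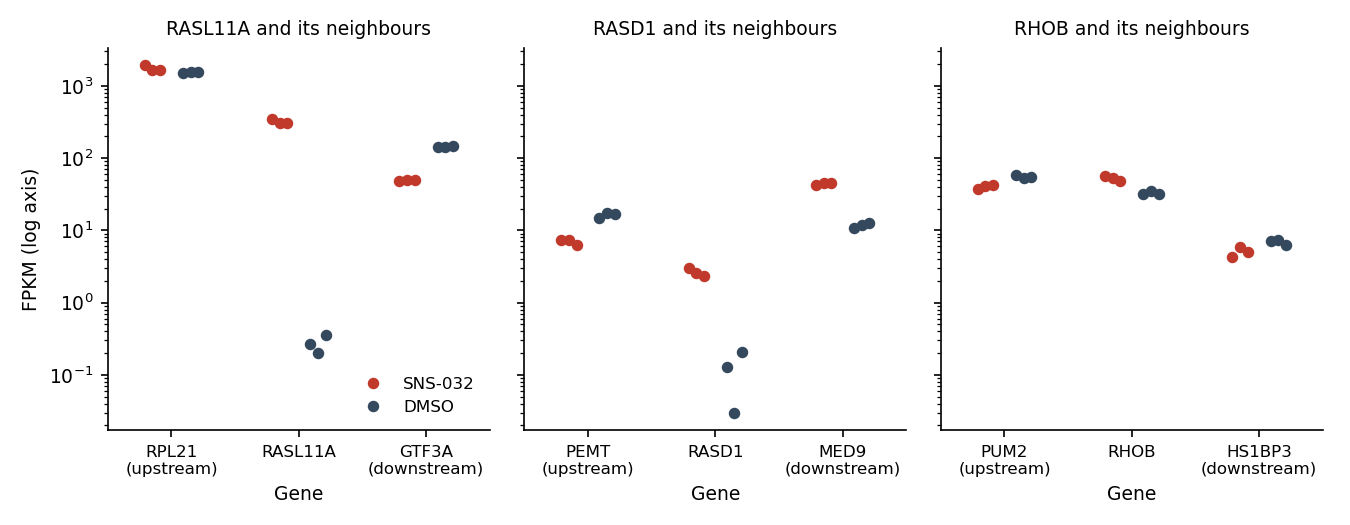
FPKM, on a log axis, of RASL11A, RASD1 and RHOB and of the nearest gene in the table on each side, with 1 point for each library and SNS-032 left of DMSO. RASL11A lies at 304 to 343 FPKM with SNS-032 and at 0.2 to 0.36 FPKM with DMSO, while RPL21 is nearly level and GTF3A is lower with SNS-032; MED9, beside RASD1, is higher with SNS-032.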

How the data were processed

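Total RNA of 6 REH samples was isolated, 3 with SNS-032 and 3 with DMSO, and cDNA libraries made from its mRNA were sequenced. The deposited values are FPKM per gene, which the authors computed with RSEM after mapping with Bowtie2 and HISAT (HISAT2 2.0.4 and GRCh38.p12 in the submitters' processing notes). The annotation and the strandedness are not given in the sources used here. The authors' own columns of fold changes and p-values were not used.

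The members and gene lists were chosen with earlier results of these data known. Of 18216 genes, the 12239 whose SNS-032 or DMSO mean reached 1 FPKM were fitted as log2(FPKM + 1) with limma 3.58.1 in R 4.3.3, with Benjamini-Hochberg adjustment over all genes tested. The fit was checked on simulated data with far fewer changed genes than these libraries showed, where 7 of 189 calls were false. That check does not bear on the scaling of the libraries. Named were the 8 members, their close relatives, the 5 profiles nearest to RASL11A, the neighbors of each member, and in each list up to 3 genes each way with the largest change among those past adjusted p 0.05, at 5 FPKM or more in the higher group and without overlap between groups. A few results that the rule covers are not reported here. Alternatives were a pseudocount of 0.1, no filter, a filter at 5 FPKM, a replicate block, rescaling to 1000000, centring on the library median, linear scaling, and leaving out each library. Gene models came from GENCODE v29. Of the symbols, 25 that a spreadsheet had turned into dates were restored.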

Additional observations from a re-analysis of the deposited data

How the results depend on the processing

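RASL11A, RASD1 and RHOB were higher with SNS-032 under every setting run. The runs that left out 1 library could not have changed this order, since the groups do not overlap for these genes. The log2 fold change of RASL11A was 9.74 with a pseudocount of 0.1, 8.70 rescaled to 1000000, 8.30 centred and 8.16 with linear scaling. That of RASD1 was 3.68, 2.36, 2.02 and 1.82 under the same settings, and that of RHOB was 1.01 centred and 0.98 with linear scaling. A filter at 5 FPKM left 3144 of 9163 genes higher. In the lists it left 4 of 15 RAS-family genes higher, 16 of 34 RAB genes higher and 11 of 20 regulators of RAS, RAP and RAL lower. With no filter, 14 of 37 such regulators were higher, beside 6801 of all 18216 genes. Under centring, 6 ARF-group genes and 8 partners of RRAD, GEM and RASD1 were lower, and 15 regulators of RHOB and the RND proteins were higher (14 with linear scaling). The log2 differences of GEM (0.26) and RND1 (0.07), both untested, turned positive under centring, which shifts values near 0 as much as all others. They were −0.03 and −0.15 under linear scaling. Leaving out 1 library at a time gave 4750 to 4896 genes higher and 5885 to 6038 lower. Samples with the same replicate number did not deviate together (r from −0.12 to 0.01), and with a replicate block 4862 genes were higher and 5989 lower. The unknown depth limits what can be said of members under 1 FPKM.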
